A study of Mus musculus with 6 samples.

Results

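The genes described here are 50 genes of DNA replication and mitosis, chosen by symbol, of 19057 genes with a named probe on the array. They comprise 21 genes of S phase, 4 regulators or markers of the whole cycle (E2f1, Mybl2, Foxm1 and Mki67) and 25 genes of mitosis. Of the 50 genes, 48 had a named probe, 101 probes in all, and 34 had a probe above background on at least 3 of the 6 arrays. The other 14 genes with a probe did not pass this filter, and Mki67 and Ccnb1 had no probe named here. The samples were 3 knockout tumours, labelled Cyp27b1 flox/flox;Cre+, and 3 control tumours, labelled Cyp27b1 flox/flox;Cre-, all breast tumours of mice on the FVB background. Both groups carried the floxed alleles of Cyp27b1, whose product carries out the final step in the synthesis of active vitamin D, and only the knockout tumours carried Cre, so the effects of Cre and of the deletion cannot be told apart. The series title places the deletion in the mammary epithelium. No source used here gives the promoter that drove Cre, the way the tumours arose or the age of the mice. No label ties a tumour to an animal, so p-values measure only the spread between these samples.

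A cell copies its DNA once in S phase and divides it in mitosis, and each step has its own genes. Cdc6 and Cdt1 load the helicase made of Mcm2 to Mcm7 on DNA, Cdc45 and the GINS proteins activate it, and ribonucleotide reductase and thymidylate synthase supply the building blocks. Many of these genes are classical targets of E2F factors such as E2f1. Genes of the mitotic kinases, the spindle and the chromosome attachment sites come on later, driven by Mybl2 and Foxm1 with the MuvB complex, which binds a promoter element called CHR. In breast tumours the joint level of these genes is widely read as a measure of proliferation. RNA from a whole tumour cannot tell apart fewer dividing cells and less RNA in each of them.

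One array was hybridised per tumour, with a summed signal between 1.23e7 and 1.48e7 on the knockout arrays and between 1.07e7 and 1.34e7 on the control arrays. Between 35.5% and 36.1% of probes were above background on the knockout arrays, against 33.4% to 35.3% on the control arrays. Values are normalized log2 intensities, a scale on which the lowest signal above background lay between 4.90 and 5.0. The probe of Cyp27b1 was not above background on any array, at 4.39, 4.29 and 4.41 in knockout tumours 1, 2 and 3 and at 4.29, 4.33 and 4.40 in control tumours 1, 2 and 3, so it checks nothing about the deletion. Of the epithelial markers, 7 of 8 luminal and 4 of 4 basal ones passed the filter, which the knockout arrays alone could meet. Krt8, Krt18, Cdh1, Gata3, Esrp1, Krt14, Krt17 and Trp63 were above background in 3 knockout and 3 control tumours. Krt19 was above background in 3 knockout and 2 control tumours, and Krt5 in 2 knockout and 2 control tumours. Elf5 was above background in 3 knockout tumours and 1 control tumour, and Epcam in 1 knockout tumour and 0 control tumours.

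The replication and mitosis genes differed more between single tumours than between the groups. Knockout 3 had the highest level of the 6 tumours for 24 of the 34 measured genes, where it had the highest level for 14.8% of all 15885 probes that passed the filter. Knockout 1 had the lowest level for 14 of the 34 genes and knockout 2 for 9, against 16.9% and 16.3% of all such probes. Among the control tumours, control 2 was the highest of its group for 26 genes and control 3 the lowest for 27. For all such probes these shares were 34.1% and 39.3%. By the brightest probe of each gene, the groups overlapped for every measured gene except Rfc3, higher in the knockout tumours, and Kif23, lower. Of all probes tested, 16.4% were higher and 13.8% lower in the knockout tumours without overlap. Knockout 3 stayed the highest of the tumours for S phase and for mitotic genes under each other background correction, normalization, filter and choice of probe tried, and with any other tumour left out.

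**Figure D1:**
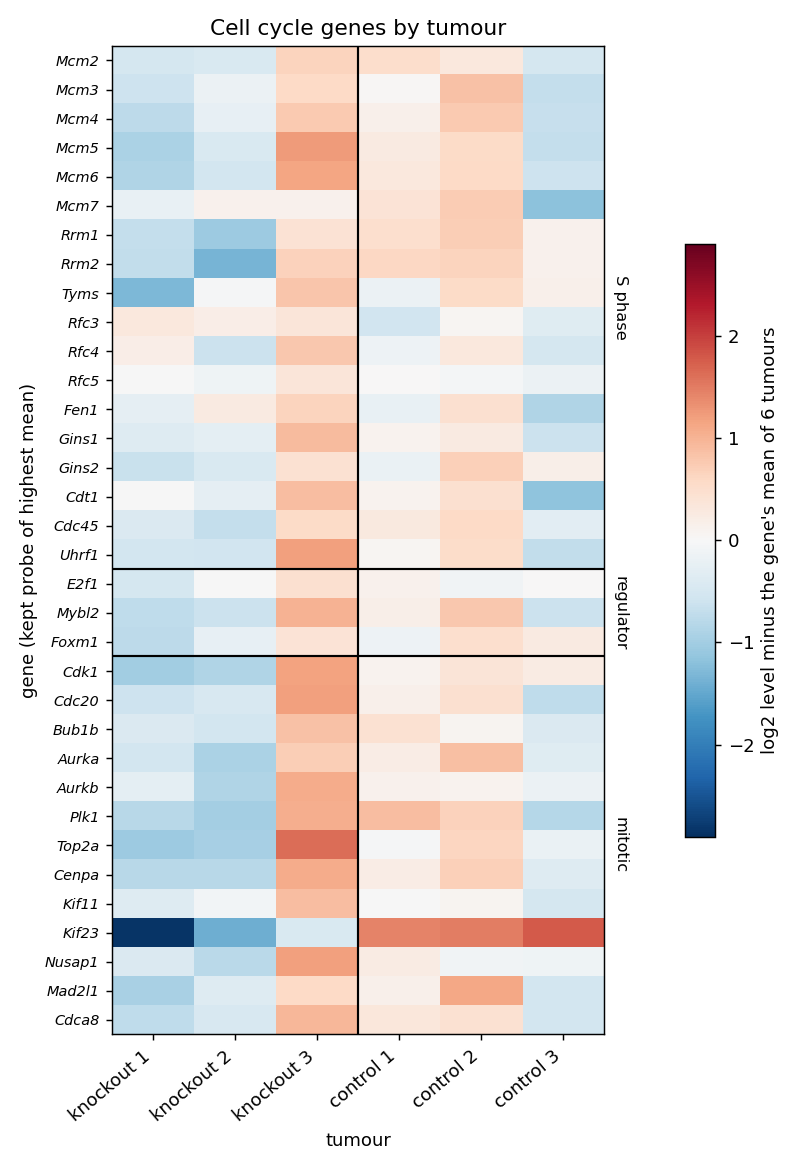
Level of each of the 34 measured genes (rows, by role) in each tumour (columns, knockout left of control), as the log2 value minus the gene's mean over the 6 tumours. The column of knockout 3 is red for every gene but Kif23, those of knockout 1 and knockout 2 are mostly blue, and Kif23 departs from the other genes with high values in all 3 control tumours.

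To set the steps of the cycle side by side, the level of each gene was taken as its deviation from its own mean over the 6 tumours and averaged over the genes of a role. The 18 measured S phase genes averaged -0.46, -0.37 and 0.69 log2 units in knockout tumours 1, 2 and 3, and 0.11, 0.50 and -0.47 in control tumours 1, 2 and 3. The 13 measured mitotic genes averaged -0.83, -0.74 and 0.92 in knockout tumours 1, 2 and 3, and 0.33, 0.53 and -0.21 in control tumours 1, 2 and 3. Both roles thus put knockout 3 at the top, knockout 1 and knockout 2 below the mean, and control 2 above control 3.

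Between tumours of a group the shift reached nearly every gene. The median S phase gene was 1.14 log2 units lower in knockout 1 than in knockout 3, with 0 of 18 genes higher in knockout 1, and the median mitotic gene 1.70 lower, with 0 of 13 higher. Knockout 2 lay below knockout 3 by a median of 1.13 for S phase genes, with 1 of 18 higher, and 1.65 for mitotic genes, with 0 of 13 higher. Knockout 1 and knockout 2 differed from each other by medians of only -0.07 for S phase and -0.10 for mitotic genes. Control 2 lay above control 3 by a median of 0.89 for S phase genes, with 18 of 18 higher, and 0.81 for mitotic genes, with 12 of 13 higher.

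S phase and mitotic genes did not move by the same amount. The S phase average minus the mitotic average was 0.37, 0.36 and -0.22 log2 units in knockout tumours 1, 2 and 3, and -0.22, -0.03 and -0.26 in control tumours 1, 2 and 3. Within the knockout group the mitotic average ran over the wider range, 1.75 log2 units against 1.16 for the S phase average, and within the control group over the narrower one, 0.74 against 0.97. Without Kif23, a mitotic gene whose probes disagree, the S phase average minus the mitotic average was 0.20, 0.31 and -0.34 in knockout tumours 1, 2 and 3, and -0.13, 0.05 and -0.09 in control tumours 1, 2 and 3. Without the filter on dim probes it was 0.036, 0.075 and 0.064 in knockout tumours 1, 2 and 3. No test was made of these averages, since the genes were chosen as a set.

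**Figure D2:**
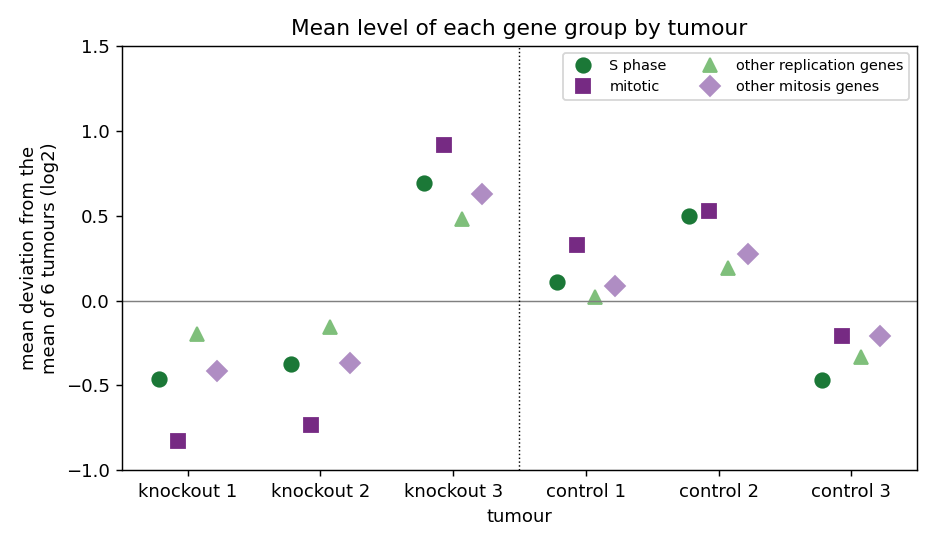
Mean deviation of each gene group from its mean over the 6 tumours, in log2 units, in each tumour, with the knockout tumours left of the dotted line. The S phase, mitotic, other replication and other mitosis genes were each highest in knockout 3, and the mitotic genes ran over the widest range, between -0.83 and 0.92.

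Markers of other cells differed between the same tumours. The fibroblast markers, of which 8 of 8 passed the filter and 5 fell in the knockout tumours, averaged -2.03, -1.24 and -0.48 log2 units in knockout tumours 1, 2 and 3, and 1.10, 0.40 and 2.24 in control tumours 1, 2 and 3. Their summed linear level was between 1581 and 5411 in the knockout tumours and between 13721 and 27103 in the control tumours. Within the knockout group the tumour with the most fibroblast signal, knockout 3, was the one with the highest replication and mitosis genes, while within the control group the tumour with the most, control 3, was the one with the lowest. The luminal markers, of which 4 rose, averaged 0.69, 1.32 and 0.73 in knockout tumours 1, 2 and 3 and -0.90, -0.56 and -1.27 in control tumours 1, 2 and 3, with a summed level between 9439 and 14724 in the knockout tumours and between 3260 and 7706 in the control tumours. The basal markers, of which 1 rose, averaged -0.67, 0.77 and 1.01 in knockout tumours 1, 2 and 3 and -0.23, -0.03 and -0.84 in control tumours 1, 2 and 3. Of the T and NK cell markers Cd3g, Cd8a, Cd4, Nkg7 and Gzmb were not above background on any array, while Cd3e was above background in 0 knockout and 3 control tumours and was not called (limma adjusted p = 0.071). Of 3 named B cell markers Cd22 was not above background, and Cd79b was in 0 knockout tumours and 1 control tumour. Ms4a1 was above background in 3 knockout tumours and 1 control tumour, with a log2 difference of 0.45 (limma adjusted p = 0.24). The groups did not overlap for Cd3e, lower in the knockout tumours, and Ms4a1, higher, as for 13.8% and 16.4% of all probes tested in these directions. Of 6 endothelial markers only Eng passed the filter, and it fell, with 5.24, 5.56 and 5.44 in knockout tumours 1, 2 and 3, against 8.89, 8.48 and 7.73 in control tumours 1, 2 and 3 (limma adjusted p = 0.0033). Pecam1 was above background in 2 knockout and 0 control tumours, Kdr in 1 knockout and 0 control tumours, and Cdh5, Tek and Tie1 on no array. Of 4 named macrophage markers 2 passed and neither was called, Cd14 with a log2 difference of 2.602 and no overlap (limma adjusted p = 0.051), and Csf1r with -0.57 (limma adjusted p = 0.29). Adgre1 did not pass and was above background in 0 knockout and 2 control tumours, and Itgam was above background on no array. No adipocyte or red cell marker passed. The part of these cells in the level of the replication and mitosis genes was not tested.

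Of the 34 measured genes, none rose and only Kif23 fell in the knockout tumours (limma, Benjamini-Hochberg over 15885 probes, adjusted p below 0.05), where 4.14% of all probes tested were higher and 5.06% lower, 9.2% in all. An unadjusted p below 0.05 was found for 3 of the 34 genes, where it was found for 24.7% of all probes. The log2 difference was below 0 for 24 genes and above 0 for 10, where it was above 0 for 54.8% of all probes, with a median of -0.16 over the genes and 0.05 over all probes. The result turned on knockout 3: without that tumour none of the 34 genes was called higher, where 3.18% of all probes were, and Rrm1, Rrm2, Cdk1 and Kif23, 4 in all, were called lower, where 4.1% of all probes were. Without it the median difference was -0.53 for S phase and -0.91 for mitotic genes. Without knockout 1 these medians were 0.19 and 0.07, without knockout 2 0.01 and 0.03, without control 1 0.02 and -0.16, without control 2 0.17 and -0.05, and without control 3 -0.46 and -0.46. Without control 1 no gene was called (1 at an unadjusted p below 0.05 in limma), where 1.18% of all probes were called higher and 1.81% lower, so that the count says little about these genes.

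**Figure D3:**
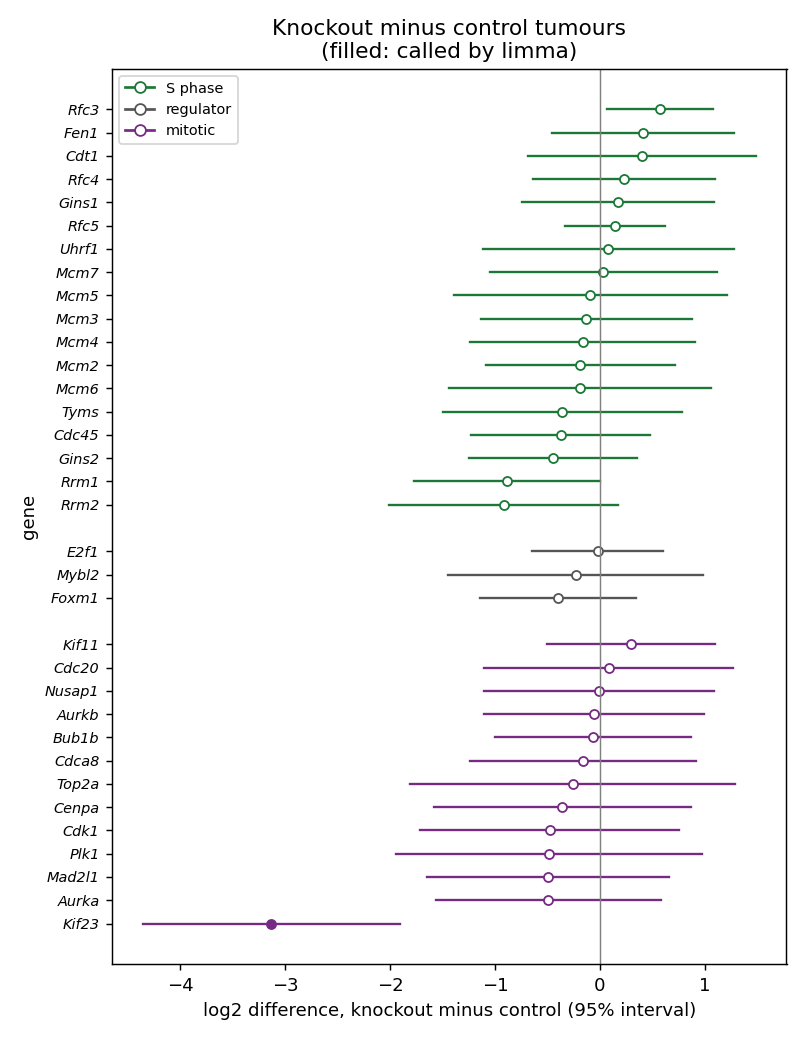
Log2 difference between the mean of the 3 knockout and the mean of the 3 control tumours for each of the 34 measured genes, with the 95% interval from limma. The interval of Kif23, between -4.36 and -1.90, lies away from 0, and most of the other intervals reach about 1 log2 unit to either side.

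The 6 subunits of the Mcm2 to Mcm7 helicase, which unwinds DNA ahead of the replication fork, were all measured, and none was called. Mcm5 had log2 values of 7.08, 7.54 and 9.22 in knockout tumours 1, 2 and 3, against 8.26, 8.55 and 7.31 in control tumours 1, 2 and 3. Mcm4 had 8.67, 9.18 and 10.18 in knockout tumours 1, 2 and 3, against 9.57, 10.19 and 8.76 in control tumours 1, 2 and 3. For both genes knockout 3 and control 2 were high and the groups overlapped. Mcm6 averaged 6.39 ± 1.08 in the knockout and 6.58 ± 0.61 in the control tumours (SD, n = 3 each), and Mcm2 averaged 7.40 ± 0.65 in the knockout and 7.59 ± 0.54 in the control tumours (SD, n = 3 each). Mcm3 averaged 5.61 ± 0.59 in the knockout and 5.74 ± 0.76 in the control tumours (SD, n = 3 each). The probes of Mcm7 differed. The brighter one had 5.66, 6.01 and 6.004 in knockout tumours 1, 2 and 3, against 6.28, 6.62 and 4.68 in control tumours 1, 2 and 3. The other had 4.99, 5.64 and 6.84 in knockout tumours 1, 2 and 3, against 5.73, 6.32 and 4.69 in control tumours 1, 2 and 3. Control 3 was low on both probes, and knockout 3 was the highest tumour on the second probe only. The log2 differences of the 6 subunits ran from -0.19 to 0.03 by the brightest probe of each. Those of the second probes of Mcm6 and Mcm7 were -0.29 and 0.25.

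By the brightest probe of each, the measured genes that load and start the helicase followed the same tumours. Knockout 3 was the highest knockout tumour and control 2 the highest control tumour. Cdt1, a loading factor, averaged 6.82 ± 0.61 in the knockout and 6.42 ± 0.86 in the control tumours (SD, n = 3 each). Cdc45 averaged 5.63 ± 0.65 in the knockout and 6.005 ± 0.45 in the control tumours (SD, n = 3 each). The GINS subunits Gins1 and Gins2 gave log2 differences of 0.17 (95% interval -0.74 to 1.09) and -0.45 (-1.25 to 0.36). Cdc6, the other loading factor, had 4 probes, none of which passed the filter. Prim1, a primase subunit, and Pcna, the sliding clamp, were not above background on any array. The only probe of Pcna read 4.53, 4.68 and 4.49 in knockout tumours 1, 2 and 3, against 4.27, 4.31 and 4.31 in control tumours 1, 2 and 3, all below the lowest signal above background.

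Ribonucleotide reductase, which makes deoxynucleotides, gave the lowest log2 differences among the S phase genes. Rrm1, its large subunit, had 7.48, 7.13 and 8.61 in knockout tumours 1, 2 and 3, against 8.66, 8.89 and 8.31 in control tumours 1, 2 and 3. Rrm2, its small subunit, had 5.25, 4.62 and 6.62 in knockout tumours 1, 2 and 3, against 6.56, 6.60 and 6.08 in control tumours 1, 2 and 3. In both genes knockout 1 and knockout 2 lay below all control tumours, while knockout 3 lay among them for Rrm1 and just above them for Rrm2. The log2 differences were -0.89 ± 0.38 for Rrm1 (SE, limma adjusted p = 0.20) and -0.92 ± 0.47 for Rrm2 (SE, limma adjusted p = 0.28). Without knockout 3 they were -1.32 (limma adjusted p = 0.031) and -1.48 (limma adjusted p = 0.030). A second probe of Rrm1 gave -1.06 (limma adjusted p = 0.16) and one of Rrm2 -0.59 (limma adjusted p = 0.60). The brighter probe of Rrm2 was above background in 2 knockout tumours, with knockout 2 below the lowest such signal, and its second probe in 1 knockout tumour.

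Tyms, which makes thymidylate, had 7.38, 8.63 and 9.48 in knockout tumours 1, 2 and 3, against 8.51, 9.24 and 8.82 in control tumours 1, 2 and 3, so that here knockout 1 alone was low. Its log2 difference was -0.36, and that of a second probe 0.11. Of the clamp loader subunits, Rfc3 had groups that did not overlap, with 5.49, 5.37 and 5.54 in knockout tumours 1, 2 and 3, against 4.62, 5.23 and 4.83 in control tumours 1, 2 and 3. Such separation with the knockout tumours higher was found for 16.4% of all probes tested, and the difference of 0.57 ± 0.22 (SE) was not called (limma adjusted p = 0.15). The probe of Rfc3 was above background in only 1 control tumour. Rfc4 gave 0.24. Rfc5 gave 0.14 by its brighter probe, while its second probe had 4.88, 4.70 and 4.97 in knockout tumours 1, 2 and 3, against 5.39, 5.17 and 4.99 in control tumours 1, 2 and 3. That probe went the other way without overlap, with a log2 difference of -0.33 (limma adjusted p = 0.36), and was above background in 1 knockout and 2 control tumours. Fen1, the nuclease that trims Okazaki fragments, gave 0.41 (95% interval -0.45 to 1.28), and Uhrf1, which carries DNA methylation through replication, 0.08 (-1.11 to 1.28).

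Most promoters of S phase genes held an E2F match. The genes were chosen by symbol, but many are classical E2F targets, so these matches are no independent finding. Promoters of 42 of the 50 genes were taken from RefSeq on GRCm38.p6, the reference of C57BL/6J mice, as 250 bases before to 50 bases after the start. The E2F site was searched with the letters TTCCCGC, with the variant TTCGCGC, with the variant TTGCCGC and with the variant TTGGCGC. The CHR was searched as TTTGAA and the box named after its letters as CCAAT, each motif on both strands, and an E2F match can share letters with a CCAAT match. An E2F match was found in 15 of 21 promoters of 18 S phase genes, 71.4%, against 2 of 21 promoters of mitotic genes, 9.52%, and 9.57% of all 32851 promoters. The CHR was found in 14.3% of the S phase promoters and 17.9% of all promoters. Shown are the S phase genes with the widest range over the knockout tumours and 1 listed start, in lower case with E2F, CHR and CCAAT matches in capitals. The positions are chr8:75109259-75109558 on the plus strand for Mcm5, chr5:30073576-30073875 on the minus strand for Tyms and chr12:24708004-24708303 on the plus strand for Rrm2.
Mcm5: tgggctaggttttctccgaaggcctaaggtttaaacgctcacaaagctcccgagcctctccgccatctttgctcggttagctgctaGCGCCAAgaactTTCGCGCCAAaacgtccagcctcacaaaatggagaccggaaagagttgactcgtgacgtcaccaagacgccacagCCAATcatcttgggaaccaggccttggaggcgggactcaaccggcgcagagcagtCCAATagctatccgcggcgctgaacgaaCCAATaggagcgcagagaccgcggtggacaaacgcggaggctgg
Tyms: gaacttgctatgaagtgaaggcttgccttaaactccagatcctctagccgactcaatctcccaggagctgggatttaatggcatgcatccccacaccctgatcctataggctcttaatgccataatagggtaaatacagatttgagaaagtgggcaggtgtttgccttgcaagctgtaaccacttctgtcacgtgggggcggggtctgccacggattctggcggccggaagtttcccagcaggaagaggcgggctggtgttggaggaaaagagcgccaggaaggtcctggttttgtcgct
Rrm2: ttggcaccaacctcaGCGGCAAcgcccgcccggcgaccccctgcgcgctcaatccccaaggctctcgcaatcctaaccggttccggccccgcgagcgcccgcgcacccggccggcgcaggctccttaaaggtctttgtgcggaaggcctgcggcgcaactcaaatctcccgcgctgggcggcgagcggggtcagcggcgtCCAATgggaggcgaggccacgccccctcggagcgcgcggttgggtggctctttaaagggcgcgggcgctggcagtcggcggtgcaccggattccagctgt
Mcm5 held 3 E2F and 3 CCAAT matches, Rrm2 1 of each, and the window of Tyms held none of these letters. A match is no evidence of binding.

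The factors that drive both programmes were measured for 3 genes, and none was called (0 at an unadjusted p below 0.05 in limma). E2f1, the S phase activator, had 8.53, 9.02 and 9.50 in knockout tumours 1, 2 and 3, against 9.16, 8.92 and 9.04 in control tumours 1, 2 and 3. Mybl2, which acts with MuvB, had 4.92, 5.03 and 6.66 in knockout tumours 1, 2 and 3, against 5.82, 6.44 and 5.04 in control tumours 1, 2 and 3. Foxm1, a forkhead factor of mitotic genes, had 5.16, 5.68 and 6.31 in knockout tumours 1, 2 and 3, against 5.77, 6.39 and 6.18 in control tumours 1, 2 and 3. Knockout 3 was the highest knockout tumour for each of them, and the groups overlapped. The log2 differences were -0.02, -0.23 and -0.40, and a second probe of Foxm1 gave -0.03.

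Among the mitotic kinases, Cdk1, the partner of the mitotic cyclins, was even in the control tumours and uneven in the knockout tumours. It had 6.93, 7.06 and 9.09 in knockout tumours 1, 2 and 3, against 8.03, 8.31 and 8.18 in control tumours 1, 2 and 3, a difference of -0.48 ± 0.53 (SE, limma adjusted p = 0.65) that was -1.18 without knockout 3 (limma adjusted p = 0.025). Plk1, a kinase of mitotic entry, had 6.05, 5.85 and 7.91 in knockout tumours 1, 2 and 3, against 7.73, 7.51 and 6.02 in control tumours 1, 2 and 3. Aurkb, the kinase of the chromosomal passenger complex, had 5.52, 4.92 and 6.87 in knockout tumours 1, 2 and 3, against 5.93, 5.91 and 5.63 in control tumours 1, 2 and 3. Control 3 was as low as knockout 1 for Plk1 but not for Cdk1. Aurka, a spindle pole kinase, gave a log2 difference of -0.49 (95% interval -1.56 to 0.58), and Cdca8, a partner of Aurkb, -0.16 (-1.24 to 0.92).

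Top2a, the topoisomerase that untangles sister chromosomes, had the widest spread within a group of all 34 genes. Its log2 values were 5.69, 5.79 and 8.36 in knockout tumours 1, 2 and 3, against 6.72, 7.36 and 6.54 in control tumours 1, 2 and 3. All 3 control tumours lay between knockout 3 above and the other knockout tumours below. Cenpa, the histone of centromeres, showed the same order, with 8.67, 8.67 and 10.56 in knockout tumours 1, 2 and 3, against 9.70, 10.16 and 9.11 in control tumours 1, 2 and 3. So did Nusap1, a spindle protein, with 5.23, 4.86 and 6.84 in knockout tumours 1, 2 and 3, against 5.89, 5.54 and 5.52 in control tumours 1, 2 and 3. The log2 differences of the 3 genes were -0.26, -0.36 and -0.01.

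None of the checkpoint and spindle genes measured was called apart from Kif23. Bub1b, a checkpoint kinase-like protein, averaged 6.01 ± 0.77 in the knockout and 6.08 ± 0.44 in the control tumours (SD, n = 3 each). Mad2l1, which holds back chromosome separation, averaged 6.62 ± 0.77 in the knockout and 7.11 ± 0.83 in the control tumours (SD, n = 3 each). Cdc20, which triggers that separation, averaged 7.82 ± 0.99 in the knockout and 7.74 ± 0.62 in the control tumours (SD, n = 3 each), and its 4 probes gave log2 differences between -0.10 and 0.25. Kif11, a motor that separates the spindle poles, gave 0.30 (95% interval -0.51 to 1.10). Of the other mitotic genes, Cenpf was above background in 2 control tumours and no knockout tumour, Melk in 2 knockout tumours and no control tumour, and Cenpe in 1 knockout tumour. Ccna2, Ccnb2, Bub1, Kif20a, Ttk, Tpx2, Ube2c and Nek2 were not above background on any array.

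Kif23, a motor protein of the midzone needed for the last step of division, was the only gene called, and its probes disagreed. The brighter probe had log2 values of 7.09, 8.50 and 9.48 in knockout tumours 1, 2 and 3, against 11.36, 11.41 and 11.69 in control tumours 1, 2 and 3. The groups did not overlap, as for 13.8% of all probes tested with the knockout tumours lower, and the difference was -3.13 ± 0.53 (SE, limma adjusted p = 0.0128). The other probe that passed the filter had 5.24, 5.15 and 7.06 in knockout tumours 1, 2 and 3, against 6.45, 6.88 and 4.85 in control tumours 1, 2 and 3. It overlapped between the groups, gave -0.24 ± 0.65 (SE, limma adjusted p = 0.87) and was high in knockout 3 and low in control 3. The call was lost with the mean of both probes (-1.68, limma adjusted p = 0.083), without the filter (limma adjusted p = 0.069) and without control 1 (limma adjusted p = 0.056), range over the alternatives 0.0029 to 0.083.

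The promoters of the mitotic genes held the CHR in 14 of 21 cases, 66.7%, against 17.9% of all promoters. Each of these 14 also held a CCAAT box, a pair found in 6.95% of all promoters. With or without the CHR, a CCAAT box was found in 85.7% of mitotic, 66.7% of S phase and 37.4% of all promoters. Genes of mitosis are known targets of MuvB, which binds the CHR, so these matches too are no independent finding. Shown are Kif23, the gene called, and the mitotic genes with the widest range over the knockout tumours and 1 listed start, with the same marking as above. The positions are chr11:99024140-99024439 on the minus strand for Top2a, chr10:69352863-69353162 on the minus strand for Cdk1, chr7:122159185-122159484 on the plus strand for Plk1 and chr9:61946750-61947049 on the minus strand for Kif23.
Top2a: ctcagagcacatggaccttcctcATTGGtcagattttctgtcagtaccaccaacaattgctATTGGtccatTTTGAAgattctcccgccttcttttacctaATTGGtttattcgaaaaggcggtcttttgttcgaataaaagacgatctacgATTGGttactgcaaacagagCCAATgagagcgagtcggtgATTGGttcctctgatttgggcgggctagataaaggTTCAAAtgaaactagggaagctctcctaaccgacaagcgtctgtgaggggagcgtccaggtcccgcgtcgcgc
Cdk1: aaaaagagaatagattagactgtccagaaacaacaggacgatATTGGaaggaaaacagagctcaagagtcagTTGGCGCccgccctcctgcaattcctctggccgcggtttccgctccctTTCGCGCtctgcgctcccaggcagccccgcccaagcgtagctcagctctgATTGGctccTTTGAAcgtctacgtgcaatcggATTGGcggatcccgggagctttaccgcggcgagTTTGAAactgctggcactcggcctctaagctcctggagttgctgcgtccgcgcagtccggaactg
Plk1: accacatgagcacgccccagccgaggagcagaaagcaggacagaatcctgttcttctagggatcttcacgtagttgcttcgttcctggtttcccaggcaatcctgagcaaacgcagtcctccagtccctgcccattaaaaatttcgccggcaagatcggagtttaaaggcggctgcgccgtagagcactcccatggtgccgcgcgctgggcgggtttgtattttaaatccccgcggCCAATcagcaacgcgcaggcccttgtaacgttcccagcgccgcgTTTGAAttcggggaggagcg
Kif23: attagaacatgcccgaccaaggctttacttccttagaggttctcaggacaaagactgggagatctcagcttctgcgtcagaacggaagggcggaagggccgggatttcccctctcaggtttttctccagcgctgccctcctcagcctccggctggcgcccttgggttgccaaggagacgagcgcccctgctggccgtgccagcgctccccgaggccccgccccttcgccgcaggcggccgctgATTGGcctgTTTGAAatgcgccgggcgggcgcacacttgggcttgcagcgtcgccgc
Each of the 4 windows held the CHR and a CCAAT box. Cdk1 also held 2 E2F matches.

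**Figure D4:**
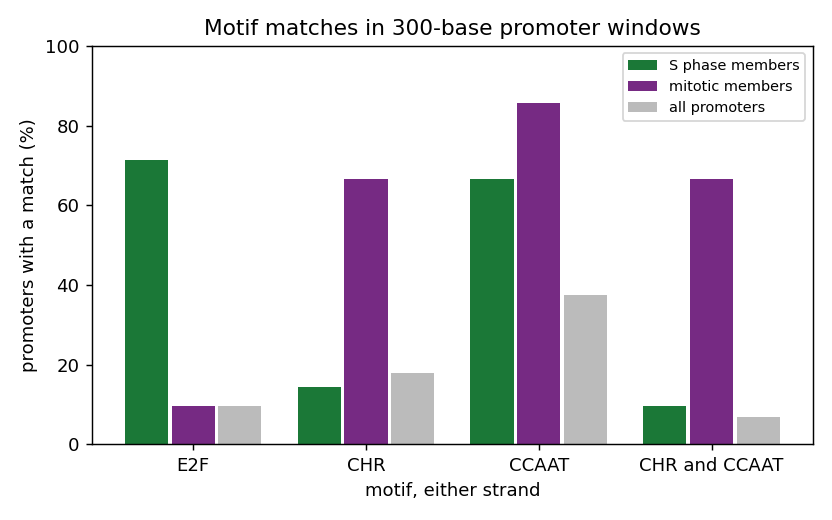
Share of promoter windows with a match to each motif on either strand, in percent, for 21 promoters of S phase genes, 21 promoters of mitotic genes and all 32851 promoters. E2F matches stood at 71.4% in S phase promoters and the CHR at 66.7% in mitotic promoters, against 9.57% and 17.9% of all promoters. Many of these genes are known targets of the factors that bind these motifs, so the shares are no independent finding.

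The spread within a group was larger in the knockout tumours for 28 of the 34 genes, where it was larger for 51.8% of all probes tested. The median SD over 3 tumours was 0.77 in the knockout and 0.46 in the control group for these genes, against 0.27 in both groups for all probes. By role, the SD was larger in the knockout tumours for 13 of 18 S phase genes and 12 of 13 mitotic genes, the exception being Mad2l1. The median SD of the mitotic genes was 1.00 in the knockout and 0.44 in the control tumours, and that of the S phase genes 0.68 in the knockout and 0.51 in the control tumours. Cdk1 had an SD of 1.21 in the knockout and 0.14 in the control tumours, and Top2a 1.52 in the knockout and 0.43 in the control tumours. The brighter probe of Mcm7 had 0.20 in the knockout and 1.03 in the control tumours, but its second probe had 0.94 in the knockout and 0.83 in the control tumours.

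The wider spread rested on knockout 3. Without it the SD was larger in the knockout tumours for 8 of the 34 genes, where it was larger for 45.3% of all probes, and the median SD was 0.22 in the knockout and 0.46 in the control tumours. With each array scaled to a common median in place of quantile normalization, the SD was larger in the knockout tumours for 20 of the 34 genes. The share of all probes under that scaling was not computed.

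**Figure D5:**
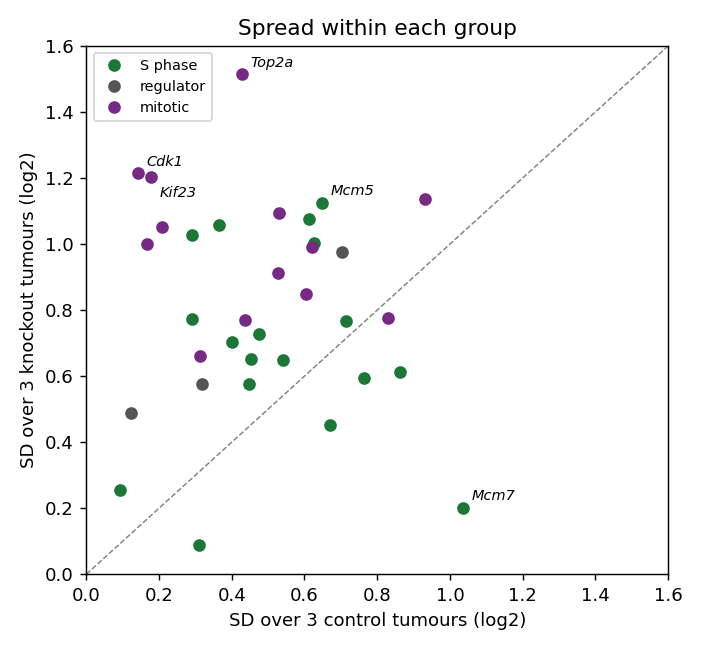
SD of each measured gene over the 3 knockout tumours (vertical axis, log2) against its SD over the 3 control tumours (horizontal axis, log2), with the line of equal SD dashed. Most points lie above the line, Top2a at 1.52 is the highest, and Mcm7, by the brighter of its disagreeing probes, lies far below the line.

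Other genes of replication and mitosis, outside the 50, ran the same way. Of 48 other replication genes 30 passed the filter, and limma called none of them, with 3 at an unadjusted p below 0.05. Of all probes tested, 9.2% were called and 24.7% had an unadjusted p below 0.05 in limma. Their median log2 difference was 0.06, and their averages were -0.20, -0.16 and 0.48 log2 units in knockout tumours 1, 2 and 3 and 0.02, 0.19 and -0.33 in control tumours 1, 2 and 3. The smallest p was that of Ccne1, the cyclin that starts S phase, with 4.61, 4.80 and 5.69 in knockout tumours 1, 2 and 3, against 6.46, 5.90 and 6.11 in control tumours 1, 2 and 3 (limma adjusted p = 0.065). The probe of Ccne1 was above background in only 1 knockout tumour and in 3 control tumours. Of 65 other mitosis genes 35 passed the filter, 1 fell and none rose, where 5.06% of all probes fell and 4.14% rose. Their median difference was -0.08. They averaged -0.42, -0.37 and 0.63 in knockout tumours 1, 2 and 3 and 0.09, 0.27 and -0.21 in control tumours 1, 2 and 3. The fall was that of Zwint, a kinetochore protein, with 10.01, 9.56 and 9.21 in knockout tumours 1, 2 and 3, against 10.63, 10.55 and 11.04 in control tumours 1, 2 and 3 (log2 difference -1.15 ± 0.26 SE, limma adjusted p = 0.035). Zwint was lowest in knockout 3, which was the lowest knockout tumour for none of the 34 measured genes above. Its call was lost with median scaling, without the filter, with the mean of all probes, with a replicate block, and without knockout 2, control 1, control 2 or control 3, where the count of other mitosis genes called was 0.

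Of 19 further genes of the E2F family and the complexes of MuvB and Rb, 11 passed the filter. Limma called none, where it called 9.2% of all probes, and 2 had an unadjusted p below 0.05, as had 24.7% of all probes. Their averages ran over a narrower range than those of the other lists within the knockout group, at -0.01, 0.07 and 0.15 log2 units in knockout tumours 1, 2 and 3 and -0.00059, 0.10 and -0.31 in control tumours 1, 2 and 3. The smallest p was that of E2f4, a repressor in quiescent cells, with 6.38, 6.38 and 6.12 in knockout tumours 1, 2 and 3, against 6.93, 6.72 and 6.79 in control tumours 1, 2 and 3. The groups did not overlap, as for 13.8% of all probes with the knockout tumours lower, and the difference of -0.52 ± 0.19 (SE) was not called (limma adjusted p = 0.14).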

How the data were processed

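RNA of 6 tumours was measured on 1 Illumina mouse bead array each. The authors deposited non-normalized probe intensities with a detection p-value per probe and array, and a second table of log2 values, normalized with lumi 2.6.0, per the submitters' processing notes, used as an alternative. Stray cells of other content in the deposited intensity table came from 4 broken lines, which belong to 2 probes. The intensities were background corrected from the detection p-values, given an offset of 16, quantile normalized and put on the log2 scale (neqc in limma 3.58.1, R 4.3.3). Of 45279 probes, 15885 had a detection p below 0.05 on at least 3 arrays. Groups were compared with lmFit and eBayes in limma and Benjamini-Hochberg adjustment over these probes. Where several probes of a gene passed, the one with the highest mean was used. Gene names came from the platform annotation, with 1 symbol for 34883 probes, several for 18 and none for 10378. With 3 arrays a group, the number of arrays limits the precision.

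The genes, the other lists and the tests were chosen with earlier results of these data known. Values in every tumour are given for Pcna, Top2a, called genes, the gene of highest mean and the genes of widest range in a role, and for the smallest p of each other list. Those of Mcm7, Rrm1, Rrm2, Rfc3, Rfc5, Mybl2, Foxm1, Cdk1, Plk1, Aurkb, Cenpa and Nusap1 were added after their values were seen. Alternatives changed the background correction, the offset, the normalization, the filter, the choice of probe, the assignment of roles and the samples.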

Additional observations from a re-analysis of the deposited data

How the results depend on the processing

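Over all probes, 657 were higher and 804 lower in the knockout tumours, and without the filter 342 were higher and 381 lower. Leaving out 1 tumour at a time gave 188 to 726 higher and 288 to 838 lower probes. The count of the 50 genes called lower, 1, was 0 without the filter and with the mean of all probes of a gene, and 0 to 4 with a tumour left out. That of the other mitosis genes, 1, was 0 with median scaling, without the filter, with the mean of all probes, and with a replicate block, and 0 to 1 with a tumour left out. That of the other replication genes was 0 to 1 with a tumour left out. The count of genes with the larger SD in the knockout tumours was 8 to 30 over all genes, 3 to 14 for S phase and 3 to 13 for mitotic genes with a tumour left out, and 20 over all genes with median scaling. With a tumour left out, the SD was larger in the knockout tumours for 38.2% to 62.9% of all probes. The S phase minus the mitotic average without the filter was 0.036, 0.075 and 0.064 in knockout tumours 1, 2 and 3. Median scaling moved the median log2 difference of all probes to 0.16, against 0.05, and that of the S phase genes to 0.01. The cause of these changes was not tested. No label says that tumours of the same number form a pair, and the values did not settle it. The correlations of the deviations of same-numbered tumours were 0.23, 0.09 and 0.06. Each tumour correlated best with the one of its own number except control 3, which correlated best with knockout 2 (0.08). With the replicate block Kif23 kept its call (limma adjusted p = 0.012). The averages without Kif23 are an alternative chosen after seeing the data. For single genes 488 of 502 values under other settings kept their direction or size and their side of the threshold.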
